A study of Mus musculus with 14 samples.

Results

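Angiopoietins and vascular endothelial growth factors (VEGFs) are secreted ligands that act on endothelial cells through small families of receptor tyrosine kinases. Described here are 10 genes of these pathways: the angiopoietin ligands Angpt1 and Angpt2 with the receptors Tek (also called Tie2) and Tie1, and the ligands Vegfa, Vegfc and Figf (now named Vegfd) with the receptors Flt1, Kdr and Flt4 (VEGF receptors 1, 2 and 3). They were chosen by name as the array files give it, which matched 14 probes. Each gene was read from its probe with the highest mean signal. They are 10 of 34797 gene names on the array.

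The samples were lymphatic endothelial cells of C57Bl/6 mouse lymph nodes, from the subcapsular sinus, where lymph enters the node, or from the medullary sinus, through which lymph leaves it. No treatment or genetic change is given for any group. By laser-capture microdissection (LCM), 50 CD31-stained cells per sample were cut from frozen sections also stained for F4/80, giving 5 subcapsular samples (replicates 1 to 5) and 5 medullary samples (replicates 1 to 5). By fluorescence-activated sorting (FACS), 1200 cells per sample were taken from enzyme-digested nodes with antibodies to a lineage panel, CD73 and podoplanin and a dead-cell dye, giving 2 subcapsular and 2 medullary samples (replicates 6 and 7). Which levels of CD73 and podoplanin defined each sinus in the sort is not given in the sources used here. CD31 also marks blood endothelium, so the LCM stain alone does not separate blood from lymphatic vessels. The age and sex of the mice and the number of animals behind a sample are not given in the sources used here, so p-values measure the spread between these samples only. With so few cells, RNA was amplified before labelling, and each sample was read on 1 single-colour array.

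As background, Angpt1 activates Tek and keeps vessels quiescent, whereas Angpt2 is released by endothelium and can block or activate the same receptor, depending on the setting. Tie1 has no well-established ligand of its own and modulates Tek. Vegfa acts through Kdr and Flt1 on blood endothelium. Vegfc and Vegfd act through Flt4, the receptor best known from lymphatic endothelium, and Angpt2 is required for normal development of lymphatic vessels. Fewer cells of a type and less RNA per cell cannot be told apart in such pooled samples.

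The probes for Tek and Tie1 are shown because both receptors come from the same family and their arrays behaved differently. Each is 60 bases long and is printed 5′ to 3′ in the sense of the transcript, with positions on mm9. The Tek probe lies at chr4:94540624-94540683 on the plus strand and the Tie1 probe at chr4:118144132-118144191 on the minus strand. Capitals mark the aligned bases at which the Tek and Tie1 probes differ.
Tek: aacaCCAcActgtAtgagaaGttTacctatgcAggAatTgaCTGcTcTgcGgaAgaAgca
Tie1: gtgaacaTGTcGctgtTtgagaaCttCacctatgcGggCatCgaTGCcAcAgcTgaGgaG
Over the 57 bases that align without a gap, 39 were identical (68.4%) and 18 differed, so the receptors were read from related but distinct stretches. In 1 of the 3 reading frames, neither aligned probe held a stop codon.

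All values below are log2 signals over the 75th percentile of the same array, so 0 marks that percentile and negative values lie under it. A probe was detected where the scanner software called it well above background. The share of probes detected was 50.78% to 69.03% on subcapsular LCM arrays and 67.36% to 75.32% on medullary LCM arrays, and 66.29% to 78.97% on the 4 FACS arrays. Its part in the results was not tested. Levels of different genes are not compared, since each probe has its own brightness. Detection fell into 3 kinds among the 10 genes. Tek, Vegfc, Flt1 and Kdr were detected on all 14 arrays. Angpt2, Tie1, Vegfa and Flt4 were detected on some arrays of the design and lost on others. Angpt1 and Figf were almost never detected.

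**Figure D1:**
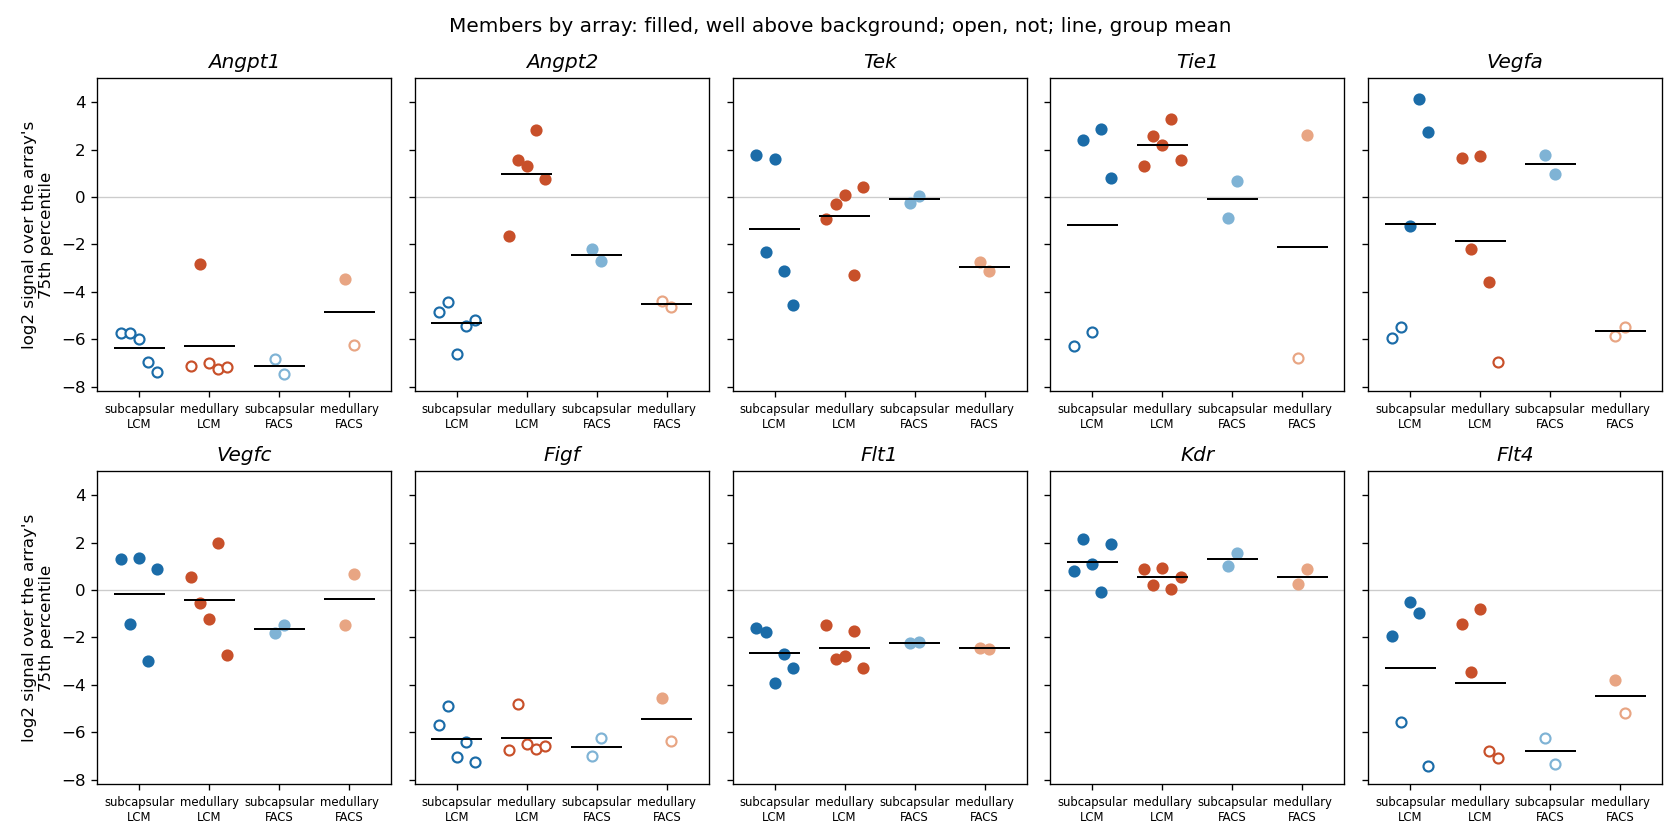
Each panel shows 1 gene, with the log2 signal over the array's 75th percentile on the y axis and the 4 groups on the x axis. Each point is 1 array, filled where the probe was well above background and open where it was not, and the black line is the group mean. Angpt2 is the gene whose LCM groups stand wholly apart, Kdr and Flt1 stay within narrow bands, and Tie1 and Vegfa split within groups.

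Angpt2 was the member that differed between the sinuses in tissue sections. On the medullary LCM arrays its values were -1.63, 1.55, 1.29, 2.82 and 0.76 for replicates 1 to 5, all detected. On the subcapsular LCM arrays they were -4.85, -4.41, -6.64, -5.43 and -5.19, and none was detected. The lowest medullary array, replicate 1, still lay above every subcapsular array. The medullary mean was 6.26 ± 0.81 log2 units higher (SE, n = 5 per sinus, 95% interval 4.48 to 8.05, limma adjusted p = 0.023). Because no subcapsular array detected the probe, the fold was bounded by a rule, which gave at least 50.9-fold. The rule takes, on each subcapsular array, the dimmest signal that the scanner software still called above background (or the probe's own signal if brighter) as the level to divide by. The bound holds for this rule and scaling only, since the log2 difference was 3.1 with normexp background correction. The probe lies at chr8:18691458-18691517 on the minus strand and is the only Angpt2 probe on the array.

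Of 8 members tested in LCM, Angpt2 was the 1 called at an adjusted p under 0.05. Over all genes tested in LCM the share called was 0.175%, and the share whose sinus groups did not overlap was 3.09%. The median difference of the 8 members was 0.01 on the log2 scale, beside 0.08 over all genes. Within the batches that could be formed from the slides, the Angpt2 difference was 5.71 on slide 1 (3 medullary and 5 subcapsular arrays), 7.12 within row 1 of the slides (2 and 4 arrays) and 5.59 within row 2 (3 arrays and 1 array). The groups did not overlap on slide 1 or in row 1, as for 9.82% and 14.8% of genes. In row 2 non-overlap held for 65.7% of genes and says little. Row 2 is, however, the only batch that held slide and row fixed together. On slide 1 the medullary arrays lay in row 2 and subcapsular replicates 1 to 4 in row 1. In row 1 the medullary arrays lay on slide 2 and the subcapsular ones on slide 1. The call ended with normexp background correction (3.1, limma adjusted p = 0.13), quantile normalization (5.96, adjusted p = 0.0627), the authors' deposited log2 table (5.59, adjusted p = 0.0663) and the slide row as a block (6.57, adjusted p = 0.0514). It also ended without medullary replicate 2 (6.11, limma adjusted p = 0.0563), and all of these kept the direction.

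In the sorted cells Angpt2 lay the other way. Its values were -2.2 and -2.69 on the subcapsular FACS arrays, both detected, and -4.37 and -4.62 on the medullary FACS arrays, neither detected. By the same rule, the subcapsular signal was at least 3.96-fold above the medullary one. The medullary minus subcapsular difference was -2.04 ± 0.58 (SE, n = 2 per sinus, limma adjusted p = 0.127), which did not pass the threshold. Over other settings it ranged from -2.83 to -0.26 (limma adjusted p from 0.104 to 0.561). Among 7 members tested in FACS none was called, and the share called over all genes was 0%. Without adjustment, 3 of the 7 members and 8830 of 27662 genes had a p under 0.05, and the smallest adjusted p of any gene was 0.0645. Non-overlap says little with 2 arrays against 2, since it held for 69.7% of genes.

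Whether the sinus difference was unequal between the isolations was tested as an interaction. This is the medullary minus subcapsular difference of the sorted cells less that of the dissected cells. It does not test whether the signs are opposite, and the FACS difference of Angpt2 was itself not called. The interaction was computed for each gene. For Angpt2 it was -8.31 ± 1.2 (SE, 95% interval -10.91 to -5.7, limma adjusted p = 0.00782), and -7.66 when undetected groups were set by the rule used for the fold bound. The share of genes called in this test was 1.3%, and Angpt2 was the 1 of 8 members called. The call ended without subcapsular FACS replicate 6 (-8.06, limma adjusted p = 0.0521) or replicate 7 (-8.55, adjusted p = 0.0734), with normexp (-3.36, adjusted p = 0.0616) and with slide as a block (-7.75, adjusted p = 0.0533). Angpt2 did not differ beyond error between FACS and LCM averaged over the sinuses (-1.3, limma adjusted p = 0.313). The 4 groups thus ordered from medullary LCM through subcapsular FACS and medullary FACS to subcapsular LCM. The last pair of groups, neither detected, has no order.

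**Figure D2:**
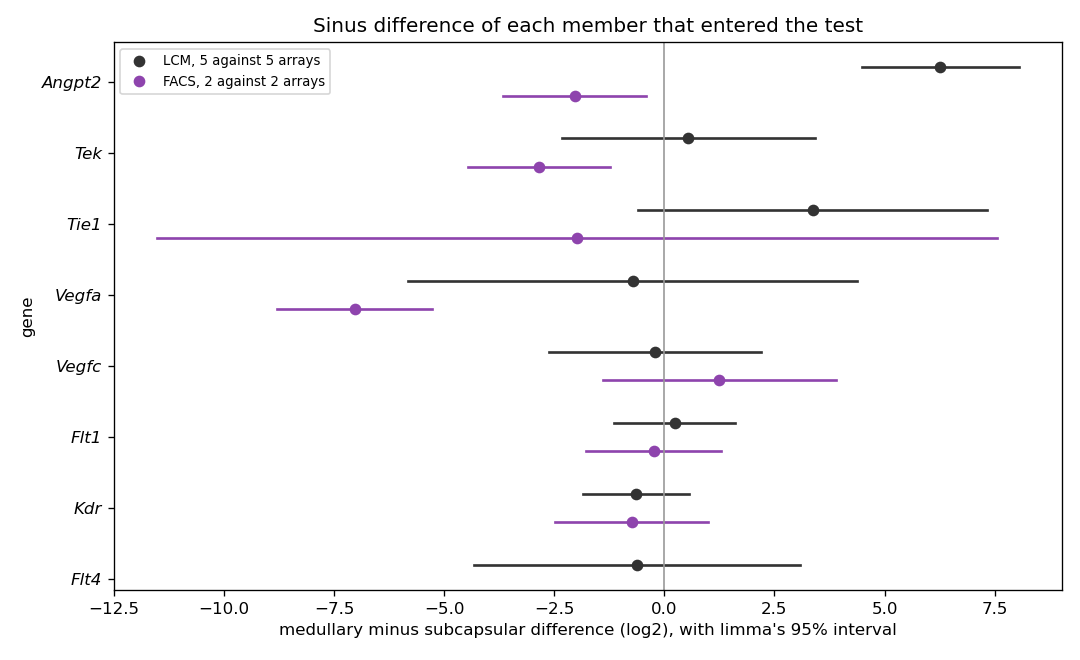
The x axis is the medullary minus subcapsular difference on the log2 scale and the y axis lists the members that entered a test, in LCM (dark) and FACS (purple). Points are limma estimates and bars their 95% intervals, not adjusted for the number of genes. The LCM interval of Angpt2 runs from 4.48 to 8.05 and its FACS interval lies below 0, from -3.67 to -0.42. Flt4 has no FACS estimate because it did not pass the filter there.

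The genes most like Angpt2 across the 14 arrays were Esam, an adhesion molecule of endothelial junctions and platelets, Darc (now Ackr1), a chemokine-binding receptor of venules, and Chst4, a sulfotransferase that builds L-selectin ligands in high endothelial venules. They were the 3 with the highest Pearson correlation among 14049 named genes detected on at least 7 arrays, and no test is attached to the choice. Their r values were 0.92, 0.92 and 0.91 over 14 arrays, and 0.98 for each over the 10 LCM arrays, where the groups form separate clusters. All 3 are on the list of blood-endothelial markers used here. Because they were chosen for following Angpt2 on these same arrays, their differences and p-values below are descriptions and no separate support.

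Darc values on the medullary LCM arrays were 1.76, 4, 2.49, 4.19 and 3.8, and on the subcapsular LCM arrays -1.51, -1.14, -2.94, -2.75 and -2.6. Replicate 1 was the lowest medullary array for Darc, as it was for Angpt2. The Darc difference was 5.44 ± 0.65 (SE, n = 5 per sinus, limma adjusted p = 0.0163). For Chst4 it was 4.47 ± 0.73 (adjusted p = 0.0472) and for Esam 3.78 ± 0.64 (adjusted p = 0.053, not called). Unlike Angpt2, these genes were detected on every array. On the FACS arrays Darc read 0.44 and 2.9 in subcapsular and 0.76 and -0.38 in medullary samples, which overlapped. The interaction passed for Darc (-6.92 ± 1.18, limma adjusted p = 0.0177) and did not for Esam (-3.23, adjusted p = 0.106) or Chst4 (-3.62, adjusted p = 0.162).

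**Figure D3:**
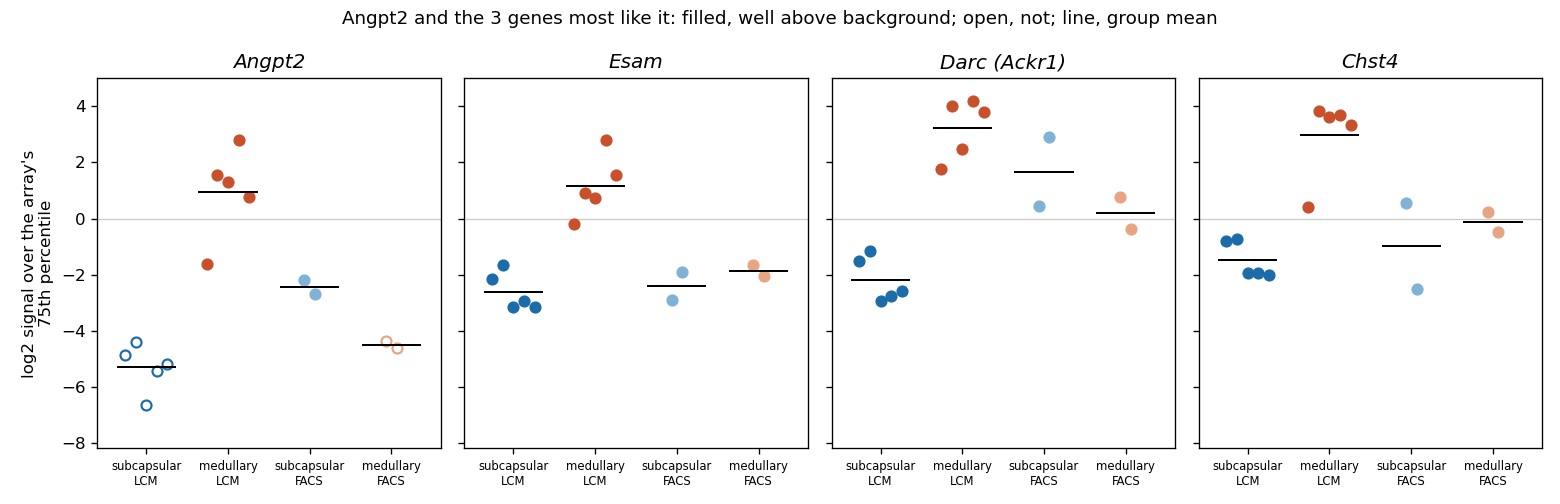
Panels show Angpt2 and the 3 genes whose values correlated best with it, with the log2 signal over the array's 75th percentile on the y axis and the 4 groups on the x axis. Points are arrays (filled, well above background; open, not) and lines are group means. In all 4 genes every medullary LCM array lies above every subcapsular LCM array, and for Esam, Darc and Chst4 both FACS means lie between the LCM means. Both medullary FACS arrays of Angpt2 lie below its subcapsular ones. The other 3 genes were chosen for their likeness to Angpt2 on these arrays.

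Lists of marker genes of other cells were read on the same arrays. The blood-endothelial and high endothelial venule list held 20 genes. Its summed level, in multiples of the array's 75th percentile, was 83.3 to 186 on the medullary LCM arrays and 28.4 to 156 on the subcapsular ones, which overlapped. It was 44.7 to 78.6 on the subcapsular FACS arrays and 21.6 to 33.3 on the medullary FACS arrays. Of 18 of its genes tested in LCM, 14 were positive and 3 were called higher in medullary samples, with a median difference of 2.28. Darc and Chst4, described above, are among those called. Over all genes in LCM, 52.6% were positive and 0.175% were called, with a median of 0.08. In the interaction 3 of 19 were called lower, with a median of -3.65, beside 1.3% called and a median of 0.52 over all genes. Selp, Sox17 and Sox7 were not detected on any subcapsular LCM array, and Sele and Sox17 on neither medullary FACS array. Gene by gene in FACS, 9 of 18 were positive and none was called, with a median of 0.06. Over all genes in FACS 59.5% were positive, with a median of 0.74. The subcapsular FACS sums nonetheless lay above the medullary ones, as for Angpt2. In LCM the ranges of the sums overlapped, the medullary range reaching higher. By its sums, the T-cell list of 13 genes went the same ways. Its summed level was 29.6 to 50.9 on subcapsular and 40.6 to 55.4 on medullary LCM arrays, and 78.6 to 89.5 on subcapsular and 21.4 to 34.8 on medullary FACS arrays. Of its 13 genes, 11 were positive in LCM and none was called there. In the interaction 1 of the 13 was called lower, with a median of -4.48, beside the same values over all genes. The FACS order was not particular to these lists. Subcapsular FACS sums were also higher for B cells (220 to 345 against 84 to 168) and plasma cells (40 to 50.7 against 8.04 to 15.2). A list of subcapsular sinus endothelium did the same (87.8 to 219 against 26.2 to 57.3). Glycam1 was its brightest gene on subcapsular FACS arrays, with a mean of 6.86 there and 1.3 on medullary FACS arrays. Gene by gene, 3 of its 6 genes tested in FACS were positive, with a median of 0.18. Macrophage sums lay the other way in FACS (384 to 396 against 588 to 634), as did the smooth muscle, dendritic cell and platelet lists. Itgam was the brightest macrophage gene, with FACS means of 8.05 subcapsular and 8.96 medullary. Mcam (8.88 and 9.75) and Siglech (5.48 and 6.27) led the smooth muscle and dendritic cell sums. Gene by gene in FACS, 8 of 19 macrophage genes were positive, with a median of -0.18. The counts were 5 of 8 for smooth muscle, 4 of 9 for dendritic cell and 3 of 4 for platelet genes. The part of any of these cells in the Angpt2 result was not tested.

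The lymphatic label was checked in the same way. Of 12 lymphatic markers measured, Prox1, the transcription factor that defines lymphatic identity, was detected on all 14 arrays. The brightest gene of the list was Thy1, which fibroblastic and T cells also express, so the list was summed without it. The other 11 genes summed to 1.04 to 28 on subcapsular LCM, 2.72 to 5.26 on medullary LCM, 2.35 to 2.37 on subcapsular FACS and 1.9 to 2.97 on medullary FACS arrays, and these ranges overlapped between the sinuses in both isolations. Several defining markers were undetected on every array of a group. Itga9 was not detected in subcapsular LCM; Flt4, Itga9 and Foxc2 were not detected in subcapsular FACS; Lyve1, Mmrn1, Ackr4 and Foxc2 were not detected in medullary FACS. A list of 6 genes known from medullary sinus endothelium was higher on the subcapsular LCM arrays (234 to 909) than on the medullary ones (57.5 to 123). Marco was by far the brightest gene in that sum, with a mean of 8.38 on subcapsular and 6.24 on medullary LCM arrays. Of the 6 genes tested in LCM, 1 had a positive difference and none was called, with a median of -2.31. Macrophages also express Marco and Mrc1, and both genes are on the macrophage list as well. The macrophage list of 22 genes summed to 675 to 2590 on subcapsular and 394 to 563 on medullary LCM arrays, and 1 of its 19 tested genes had a positive difference. The part of these cells in the member results was not tested.

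Angpt1, the agonist of Tek that mural and stromal cells are known to make, was close to undetected. It was detected on medullary LCM replicate 2 (-2.82) and medullary FACS replicate 6 (-3.46), and on none of the other 12 arrays, which lay between -7.45 and -5.73. It met the filter in neither isolation and was not tested. Its probe lies at chr15:42256335-42256394 on the minus strand.

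Tek was detected on every array and scattered widely within groups. Its subcapsular LCM values were 1.78, -2.34, 1.59, -3.14 and -4.56, and its medullary LCM values were -0.91, -0.28, 0.09, -3.27 and 0.42. The subcapsular arrays fell into a high pair (replicates 1 and 3) and 3 low arrays, and the groups overlapped. The LCM difference was 0.54 ± 1.3 (SE, n = 5 per sinus, limma adjusted p = 0.901). On the FACS arrays Tek read -0.25 and 0.06 in subcapsular and -2.73 and -3.14 in medullary samples. That 7.17-fold difference, -2.84 ± 0.58 on the log2 scale, had an unadjusted p under 0.05 and a limma adjusted p of 0.094, so it was not called. The interaction for Tek was -3.38 (limma adjusted p = 0.317).

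Tie1 alternated between high and undetected. Its medullary LCM values were 1.31, 2.56, 2.18, 3.29 and 1.55, all detected. On subcapsular LCM replicates 2, 4 and 5 it read 2.39, 2.86 and 0.81, inside or near the medullary range, whereas replicates 1 and 3 read -6.29 and -5.71 and were not detected. The 2 subcapsular arrays that did not detect Tie1 were those with the highest Tek. The Tie1 difference was 3.37 ± 1.79 (SE, n = 5 per sinus, limma adjusted p = 0.496). In FACS, Tie1 read -0.87 and 0.66 in subcapsular samples, and -6.79 (not detected) and 2.6 in medullary samples. The FACS difference was -1.99 ± 3.42 (limma adjusted p = 0.682). Without medullary FACS replicate 6 it was 2.7. Over the 14 arrays the Pearson correlation was -0.42 between Tek and Tie1 and 0.51 between Angpt2 and Tie1, given as descriptions of arrays that share these groups.

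Vegfa, the main ligand of Kdr and Flt1, had the widest FACS difference of the members. Subcapsular FACS arrays read 1.77 and 0.97, and medullary FACS arrays, neither of which detected it, -5.85 and -5.47. By the rule used for Angpt2, and under this scaling, the subcapsular signal was at least 61.2-fold above the medullary one. The difference of -7.03 ± 0.63 (SE, n = 2 per sinus, 95% interval -8.79 to -5.27) had a limma adjusted p of 0.0645 and was not called. That is the smallest adjusted p in the comparison, shared with other genes, and Vegfa ranked 128 by unadjusted p. With limma's trend and robust options it passed (adjusted p = 0.0419), as did 1813 of 27662 genes. Over other settings the Vegfa difference in FACS ranged from -7.61 to -3.34. In LCM the Vegfa values scattered widely within both sinuses. They were -5.96, -5.47, -1.24, 4.12 and 2.75 on the subcapsular arrays, with the first and second of these not detected, and 1.64, -2.2, 1.72, -3.58 and -6.97 on the medullary arrays, with the last not detected. The LCM difference was -0.72 ± 2.31 (limma adjusted p = 0.929), and it was 1.55 on slide 1 alone. The interaction was -6.31 ± 3.39 (limma adjusted p = 0.293), so a difference between the isolations was not shown. The other Vegfa probe, at chr17:46154387-46154446, was detected on neither medullary FACS array and on 1 of 2 subcapsular FACS arrays. It gave -1.51 in LCM (limma adjusted p = 0.72) and did not enter the FACS test.

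Vegfc, a ligand of Flt4 that drives lymphatic growth, was detected on all arrays and did not separate the sinuses. It read 1.29, -1.42, 1.33, -3.01 and 0.87 on subcapsular LCM and 0.55, -0.57, -1.21, 1.97 and -2.76 on medullary LCM arrays. The groups overlapped, with a difference of -0.21 (limma adjusted p = 0.96). On FACS arrays it read -1.8 and -1.49 in subcapsular and -1.48 and 0.68 in medullary samples, a difference of 1.25 ± 0.95 (SE, n = 2 per sinus, limma adjusted p = 0.376). The probe lies at chr8:55271533-55271592 on the plus strand. Figf, the other ligand of Flt4, was detected on medullary FACS replicate 6 (-4.54) and on no other array, where it lay between -7.27 and -4.82. This value rests on the mean of 10 spots per array, at chrX:160840395-160840454 on the plus strand, and the gene was not tested.

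Kdr, VEGF receptor 2, was the most even of the members together with Flt1. It read 0.8, 2.15, 1.11, -0.09 and 1.92 on subcapsular LCM, 0.89, 0.22, 0.92, 0.06 and 0.55 on medullary LCM, 1.03 and 1.57 on subcapsular FACS and 0.24 and 0.88 on medullary FACS arrays. The sinuses overlapped in LCM. The differences were -0.65 ± 0.54 in LCM (SE, n = 5 per sinus, 95% interval -1.85 to 0.55, limma adjusted p = 0.691) and -0.74 ± 0.62 in FACS (adjusted p = 0.414). FACS and LCM differed by 0.08 (limma adjusted p = 0.962). That evenness belongs to the brightest probe, at chr5:76330395-76330454. The other Kdr probe, at chr5:76329309-76329368 and read from 10 spots, gave 2.37, 1.93, -0.97, -0.08 and 0.44 on subcapsular LCM and -0.27, -0.27, -1.23, -1.71 and -0.97 on medullary LCM arrays. On FACS arrays it read -0.38 and -2.37 in subcapsular samples, and -5.72 and -4.9, neither detected, in medullary samples. Its sinus difference was -1.63 in LCM (limma adjusted p = 0.41) and -3.94 in FACS (adjusted p = 0.108). The same probe was lower in FACS than in LCM by 3.27 on the log2 scale (difference -3.27 ± 0.59, limma adjusted p = 0.00736). These tests were run after the values of the probe had been seen. The files name the same transcript, NM_010612, for both probes.

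Flt1, VEGF receptor 1, was likewise even on its brightest probe, at chr5:148446872-148446931, which the files tie to the transcript ENSMUST00000110529. It read -1.6, -1.78, -3.92, -2.71 and -3.29 on subcapsular LCM, -1.46, -2.91, -2.77, -1.72 and -3.3 on medullary LCM, -2.23 and -2.21 on subcapsular FACS and -2.45 and -2.47 on medullary FACS arrays. The LCM difference was 0.23 ± 0.62 (SE, n = 5 per sinus, 95% interval -1.15 to 1.61, limma adjusted p = 0.915). The FACS difference was -0.24 (adjusted p = 0.757). Its direction was not stable over the scalings, with -0.73 in LCM under quantile normalization. The probe for the transcript NM_010228, at chr5:148373791-148373850, behaved differently. It was detected on no subcapsular LCM array (-7.06 to -4.53) and on medullary LCM replicates 1, 2 and 4 (0.21, -0.65 and 0.23) but not 3 and 5 (-5.34 and -6.73). That difference was 3.83 (limma adjusted p = 0.349). In FACS it read -0.74 and -7.46 (not detected) in subcapsular and -0.8 and -0.92 in medullary samples. The third Flt1 probe, at chr5:148465976-148466035, gave -0.59 in LCM and 2.19 in FACS, neither called. No probe of Flt1 passed a test, and the probes did not share a direction.

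**Figure D4:**
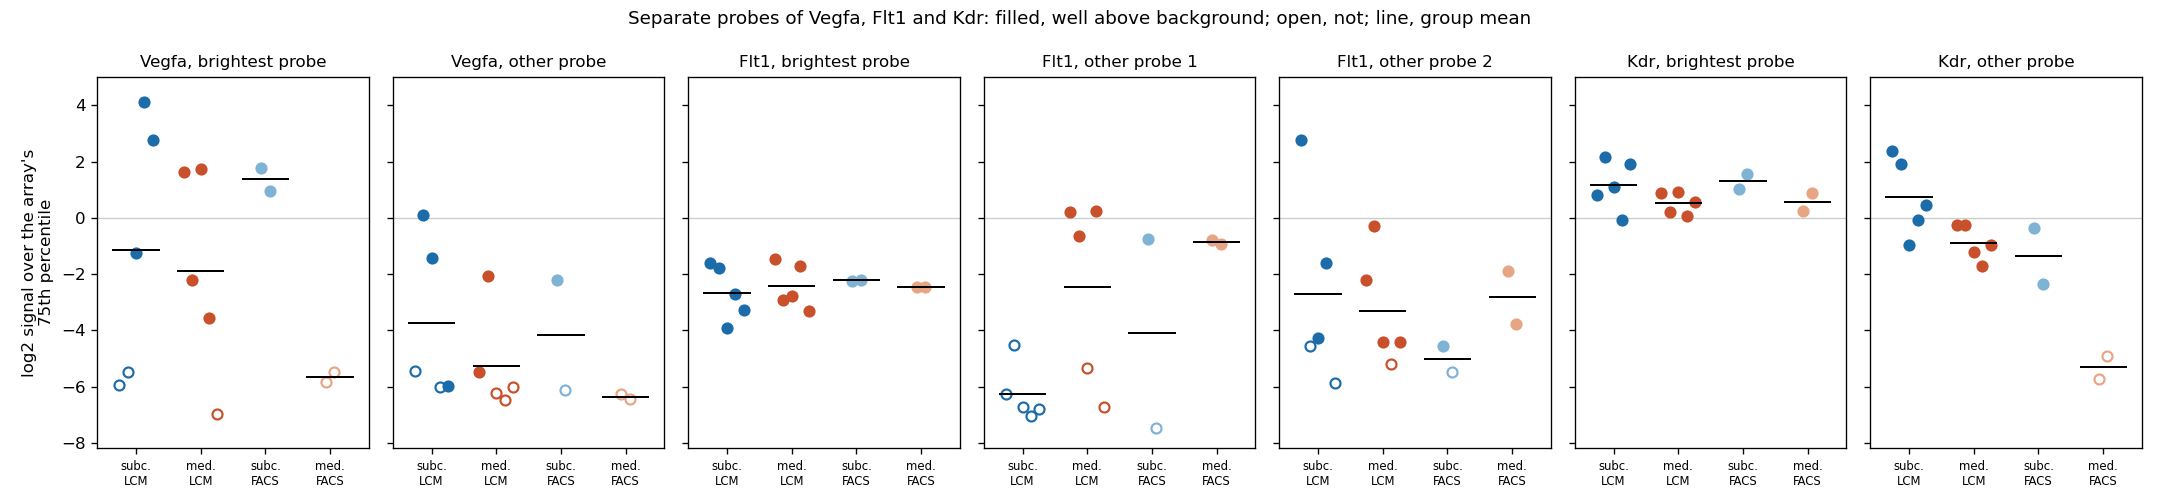
Panels show each probe of Vegfa, Flt1 and Kdr, the members with several probes, with the log2 signal over the array's 75th percentile on the y axis and the 4 groups on the x axis. Points are arrays (filled, well above background; open, not) and lines are group means. The brightest Kdr probe stays between -0.09 and 2.15 while the other falls to -5.72 on a medullary FACS array, and the Flt1 probe called other probe 1 is undetected on all subcapsular LCM arrays.

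Flt4, VEGF receptor 3 and a defining lymphatic receptor, was detected on 7 of 14 arrays. On subcapsular LCM arrays it read -1.95, -0.49 and -0.97 for replicates 1, 3 and 4 and was not detected on replicates 2 and 5 (-5.58 and -7.42). On medullary LCM arrays it read -1.44, -3.44 and -0.79 for replicates 1 to 3 and was not detected on replicates 4 and 5 (-6.78 and -7.07). Each sinus thus held 3 arrays that detected the probe and 2 arrays that did not. The LCM difference was -0.62 ± 1.68 (SE, n = 5 per sinus, limma adjusted p = 0.913). On slide 1 alone it was 1.39, the medullary arrays that did not detect Flt4 being those on slide 2. Among sorted cells Flt4 was detected on medullary replicate 6 (-3.78) and not on subcapsular replicates 6 and 7 (-6.23 and -7.33) or medullary replicate 7 (-5.17). FACS minus LCM was -2.03 ± 1.25 (limma adjusted p = 0.477). The probe lies at chr11:49465646-49465705 on the plus strand.

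Read from its brightest probe, no member was called between FACS and LCM averaged over the sinuses, unlike the other Kdr probe above. Over all genes 3.86% were called there. The median of the 8 members tested was -0.68, beside 0.17 over all genes. For the sinus difference in FACS the members' median was -1.99 and that of all genes 0.74.

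The closest companions of the other members were chosen by the same rule, with r over 14 arrays as a description only. Tek was most like Ext2, a glycosyltransferase of heparan sulfate synthesis (0.92), and Kdr most like Fpgt (0.88). Vegfc was most like Alad, an enzyme of heme synthesis (0.87), and Flt4 most like the potassium channel gene Kcnj16 (0.85). Tie1 and Flt1 were most like Pdxp (0.89) and the dopamine receptor gene Drd2 (0.88). Vegfa was most like Cd7, a T-cell surface molecule, and Usp4 (0.92). None of these first-ranked companions is on the pathway list or the blood-endothelial list.

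The wider pathway was read from a list of 68 genes in 5 roles. In LCM none of 61 genes tested was called, and at an unadjusted p under 0.05 medullary samples were higher for 7 genes and lower for 5, with a median of -0.27. These 12 genes are 19.7% of those tested, beside 11.7% over all genes. Coreceptors and regulators had a median of 1.14 over 9 genes, and adaptors and kinases -0.87 over 31. Ptprb, the endothelial phosphatase that removes phosphate from Tek, had the lowest p. It was 3 ± 0.62 higher in medullary samples (SE, n = 5 per sinus, limma adjusted p = 0.12). All 5 of its medullary values (-2.4 to 0.4) lay above the subcapsular ones (-4.67 to -2.82). Grb7, an adaptor that binds Tek, was detected on 4 of 5 medullary and 0 of 5 subcapsular LCM arrays, with a difference of 5.16 ± 1.21 (limma adjusted p = 0.161). Mapkapk2, a kinase downstream of p38, had -3.68 (limma adjusted p = 0.244).

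In FACS none of 61 pathway genes was called, and at an unadjusted p under 0.05 there was 1 higher and 17 lower in medullary samples, with a median of -1.28, beside 0.74 over all genes. These 18 genes are 29.5% of those tested, near the 31.9% over all genes. The lowest p values belonged to Hif1a, the hypoxia-inducible factor that induces Vegfa (-5.46, limma adjusted p = 0.0645), Sh2b3, an adaptor (-6.33, adjusted p = 0.0645), and Mapk14, the p38 kinase (-5.53, adjusted p = 0.0663). These 3 genes, like Vegfa, were detected on both subcapsular and neither medullary FACS array. They were picked for their low p, and the share of all genes with that pattern is not given here. A link between Hif1a and Vegfa in these samples was not tested. In LCM, Hif1a had -2.22 (limma adjusted p = 0.36), detected on 5 of 5 subcapsular and 3 of 5 medullary arrays.

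Grb7 was the pathway gene called in the interaction, 1 of 65 tested (1.54%), near the 1.3% called over all genes. Its medullary minus subcapsular difference was 5.16 in LCM and -4.12 in FACS, and the interaction was -9.28 ± 1.91 (SE, limma adjusted p = 0.0363), the same order of signs as Angpt2. Pik3ca, the catalytic subunit of phosphoinositide 3-kinase (-4.45, adjusted p = 0.0656), and Itgb1, the beta-1 integrin (-4.95, adjusted p = 0.0722), came next and were not called.

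Between isolations, 3 pathway genes were higher and 3 lower in FACS than in LCM, of 65 tested (9.23%), beside 3.86% called over all genes. Nr4a1, an immediate early gene that VEGF and many other stimuli induce, was higher by 5.28 ± 0.78 (SE, limma adjusted p = 0.00192). It read 1.77 and 1.9 on subcapsular and -0.76 and 0.28 on medullary FACS arrays. All LCM arrays lay lower, the highest being subcapsular replicate 4 at -1.03. Ptprb was higher by 3.2 ± 0.54 (adjusted p = 0.00491) and Dll4, a Notch ligand induced by VEGF, by 2.17 ± 0.52 (adjusted p = 0.0337). Pik3ca fell by 4.21 (adjusted p = 0.000779), Cdh5, the vascular endothelial cadherin, by 2.94 (adjusted p = 0.016) and Shc2, an adaptor, by 2.5 (adjusted p = 0.0453). Pik3ca and Cdh5 were detected on neither medullary FACS array. Cell number, handling and slide differ between the isolations and cannot be told apart in these averages.

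**Figure D5:**
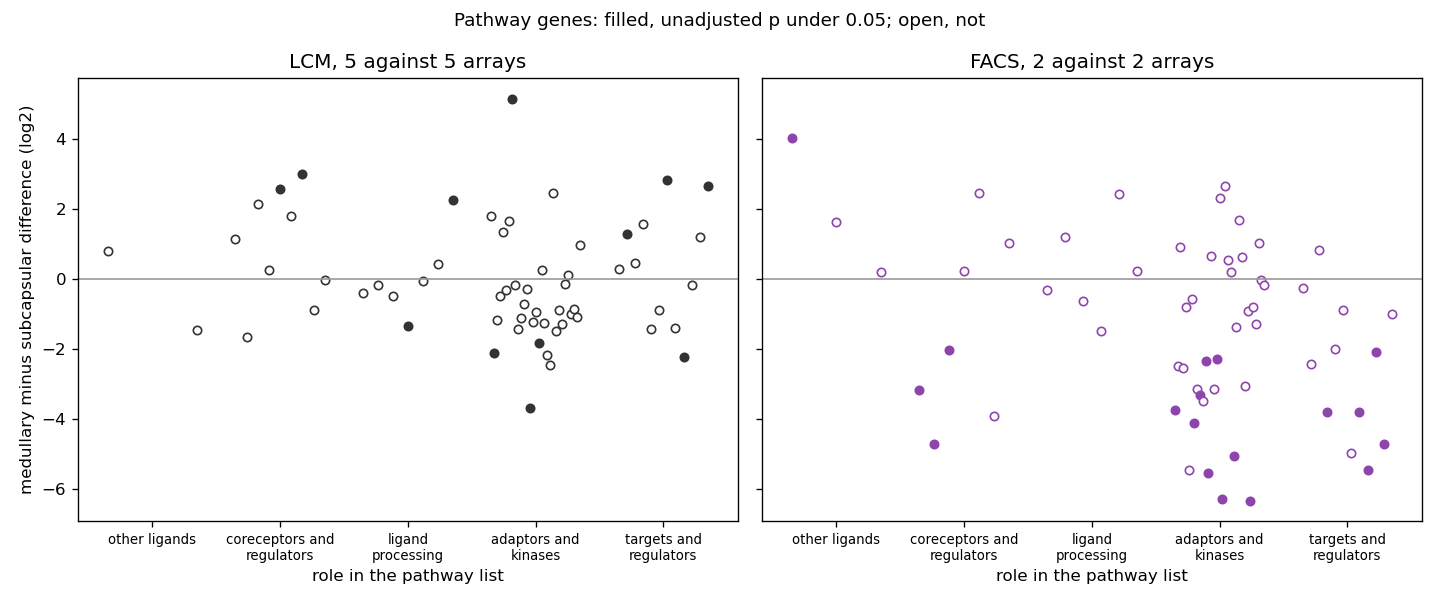
Each point is 1 gene of the pathway list, placed by role on the x axis and by its medullary minus subcapsular difference (log2) on the y axis, with LCM on the left and FACS on the right. Filled points had an unadjusted p under 0.05. None passed after adjustment. In FACS, 17 filled points lie below 0 and 1 above, and in LCM 5 below and 7 above.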

How the data were processed

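RNA from 14 samples was read on single-colour Agilent mouse arrays. The scanner output that the authors deposited was written by Feature Extraction 10.7.3.1, per the file headers, and holds a background-subtracted intensity for each spot, with probe positions on mm9. A second deposited table holds log2 values with a median of 5.43 on every array, whose making is not given in the sources used here. It served as an alternative.

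The log2 intensity of each probe was taken relative to the 75th percentile of all non-control probes on its array. Spots flagged as outliers by the scanner software were dropped and repeated spots averaged. A gene name was read from its brightest probe. Genes entered a test when well above background on at least 3 of 5 LCM arrays or 2 of 2 FACS arrays of a sinus. All genes were fitted together by lmFit and eBayes (limma 3.58.1, R 4.3.3), with Benjamini-Hochberg adjustment and a threshold of 0.05. Fits over all 14 arrays had a mean for each of the 4 groups, and arrays were weighted by isolation. The fitting functions were tested on simulated data. No member spot was saturated.

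The members and lists were chosen with earlier results of these data known. All 10 members are named, with the 3 pathway genes of lowest p in each comparison, the pathway genes called, and the 3 genes most correlated with a member. The pathway genes called beyond those 3 were added to the named genes after their values were seen. List genes were matched by the name in the files or a RefSeq synonym, and Ccl21a and Clec4m were not analysed here. Replicate numbers are shared between sinuses but did not pair samples. Correlations of same-numbered deviations were -0.02 to 0 in LCM and -0.01 in FACS. The separate probes were fitted as alternatives added after the data were seen. With 5 or 2 arrays per group, their number limits the precision.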

Additional observations from a re-analysis of the deposited data

Results flagged for a closer look

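The Angpt2 sinus difference itself differed between the isolations, at -8.31 on the log2 scale for FACS minus LCM (limma adjusted p = 0.00782). Angpt1 on medullary LCM replicate 2 read -2.82, where the next of the 5 arrays read -6.99, a gap of 0.94 of the group's range against a critical value of 0.71. Figf on the same array read -4.82 and the next -6.5, a gap of 0.88 of the range, although the probe was not well above background there. Chance flags about 1 in 20 such groups, and 20 groups were checked.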

How the results depend on the processing

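Slides, rows and isolations overlap only in part with the sinuses: the FACS sinuses lay in separate rows, so a row block could not be fitted there, and sinus and row cannot be told apart in FACS. Samples are not tied to animals. Undetected probes have only a bound, so their differences depend on the background correction. Across settings, genes called among all tested ranged from 0 to 225 in LCM, 0 to 4508 in FACS, 11 to 1155 in the interaction and 184 to 1565 between isolations, and the median LCM difference of all genes moved between -0.26 and 0.81. With the percentile taken over probes detected on all arrays, 216 of 225 LCM calls were higher in medullary samples, beside 46 of 48 in the analysis reported, 6 of 8 with normexp, 9 of 14 with quantile normalization and 11 of 16 with the deposited table. Where a value below changed, the cause was not tested.

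The count of members called in LCM was 0 in place of 1 with normexp, quantile normalization, the deposited table, detection required on every array (which removes Angpt2), the row block and the replicate block. With the replicate block the Angpt2 difference was 6.26 (limma adjusted p = 0.171), and the block called 0 genes in LCM and 0 in FACS. The interaction count was 0 with normexp, detection on every array and the slide block, and in FACS the count was 1 (Vegfa) with trend and robust options, where 1813 of 27662 genes were called. Leaving out 1 array at a time gave 0 to 1 members called in LCM and in the interaction, with Angpt2 at 5.8 to 6.91 and -8.95 to -7.84, and 0 in FACS and between isolations.

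Signs of uncalled members turned in several settings. In LCM, Flt1 was -0.02 with normexp, -0.73 with quantile normalization, -0.68 with the deposited table and -0.59 on the probe at chr5:148465976-148466035. With the percentile over detected probes Flt4 was 0.11, Kdr 0.08, Vegfa 0.01 and Vegfc 0.52, and with the slide block or slide 1 alone Flt4 was 1.39 and Vegfa 1.55. In FACS, Flt1 was 0.19 with normexp, 1.73 as the mean of its probes and 3.23 and 2.19 on its other probes, and Tie1 was 0.02 with normexp. In the interaction Flt1 was 0.21 with normexp, 0.57 as the mean of probes and 2.78 on that same probe. Between isolations Flt1 was -0.35 with quantile normalization, -0.33 with the deposited table and -0.92 on that same probe, Kdr -1.6 as the mean of probes and -3.27 on its other probe, and with the slide block Flt4 was 1.99, Tek 0.39 and Vegfa 3.9.

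Leaving out 1 array at a time also turned signs. In LCM the ranges were -0.09 to 0.49 for Flt1, -1.66 to 0.17 for Flt4, -0.26 to 1.32 for Tek, -1.92 to 0.6 for Vegfa and -0.92 to 0.37 for Vegfc. In FACS Tie1 ranged from -6.68 to 2.7 and in the interaction Kdr from -0.41 to 0.23. Between isolations Kdr ranged from -0.08 to 0.24, Tie1 from -3.94 to 0.75 and Vegfa from -1.27 to 0.03.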
